A study of Mus musculus with 14 samples.

Results

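Heat shock proteins and their cochaperones were followed in mouse lung through 10 genes: Hspa1a, Hspa1b, Hspa8, Hsph1, Hsp90aa1, Hspb1, Hspd1, Hspe1, Dnajb1 and Bag3. The members were the probes whose RefSeq accession maps to these symbols, 19 of the 56605 probes on the array, and 18 of them were bright enough to be tested. Each gene is represented by its brightest probe, and the 10 genes stand among 30579 tested in all. Whole-lung RNA came from male C57BL/6N mice, sampled 1 month after an intratracheal dose. Controls received PBS (5 mice), and 3 mice each received 200 µg of carbon fibre before recycling (VCF), after carbonization (CCF) or after firing (RCF). Each mouse gave 1 array, and the series describes the samples as independent. The series states that it measured stress-induced expression, and no age is given in the sources used here.

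Heat shock proteins are chaperones that bind unfolded protein chains, keep them from clumping and help them fold. The inducible HSP70 proteins, encoded by Hspa1a and Hspa1b, are made in quantity when the transcription factor HSF1 is released by protein damage, and the constitutive family member HSC70, encoded by Hspa8, does much of the same work in unstressed cells. J-domain proteins such as DNAJB1 start the ATP cycle of HSP70, and the nucleotide exchange factors HSPH1 and BAG3 end it. HSP90 completes the folding of kinases and receptors, the small protein HSPB1 holds unfolded chains, and HSPD1 with its lid HSPE1 folds proteins inside mitochondria. In dissected tissue these transcripts are known to respond also to temperature and handling.

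Values are log2 of the processed signal minus the 75th percentile of the same array, so that 0 is the level of the 75th percentile, and a difference of 1 is a doubling. Levels of different probes are not compared. The 75th percentile of intensity ran from 891 to 2953 on 11 arrays and was 277, 323 and 375 on VCF 1, CCF 2 and RCF 1, which were dim. The arrays came from 3 slides, and the second of them carried only replicate 3 of control, VCF and CCF. Control 4 and 5 lay with RCF 2 and 3 on slide 3, which was scanned on another day, and the other 7 arrays lay on slide 1. Hopx, a marker of alveolar type 1 cells, was at 5.73 to 6.38 on the 14 arrays, far above the 75th percentile. Control 1 and control 4 were alike across genes although they lay on different slides: the SD of their difference was 0.34 over 19869 genes, the smallest of any pair on different slides, while the smallest of all pairs was 0.27 for RCF 2 and 3. Whether they share a source was not tested, and the counts and the genes in which both were low are also given with the pair averaged as 1 sample, an alternative chosen after seeing the data. In whole tissue, fewer cells of a type and less RNA per cell cannot be told apart.

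Against vehicle and by brightest probe, the inducible HSP70 genes had the largest differences of the 10 members in VCF and CCF lungs. None of the 10 passed the test in any comparison. A dimmer probe of Hspa8, described below, differed by 1.93 in CCF and passed when probes were tested singly. In VCF all 10 differences were above 0 (49.7% of all genes were) with a median of 0.27, against −0.00 over all genes. In CCF 8 were above 0 (49.7% of all genes), with a median of 0.33 against −0.00, and in RCF 7 (57.1% of all genes), with a median of 0.09 against 0.06. With control 1 and 4 averaged as 1 sample 9, 8 and 5 members were above 0 in VCF, CCF and RCF. Without the 3 dim arrays 8, 9 and 6 were. The members varied together across arrays, so their signs are not 10 independent observations. By limma with Benjamini-Hochberg adjustment over all genes, 0 of 10 members were called at a threshold of 0.05 in VCF, CCF and RCF against control, where 0.085%, 5.99% and 0.154% of all genes were called. At an unadjusted p under 0.05 the counts were 3 of 10 in VCF (9.96% of all genes), 4 of 10 in CCF (23.7%) and 0 of 10 in RCF (12.9%). The CCF count was 1 without control 1, without control 4 or without CCF 2, 2 without CCF 1 or CCF 3 and 7 without control 5, and the VCF count was 1 without VCF 3 and 2 without control 1 or control 4. With control 1 and 4 averaged as 1 sample it was 2 in VCF and 1 in CCF, and the medians of the members were 0.21, 0.26 and −0.015 in VCF, CCF and RCF. The 3 comparisons share the control arrays, so that a high or low control moves all of them together. All differences below carry limma's standard error after ±, with n = 3 fibre arrays and n = 5 control arrays.

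**Figure D1:**
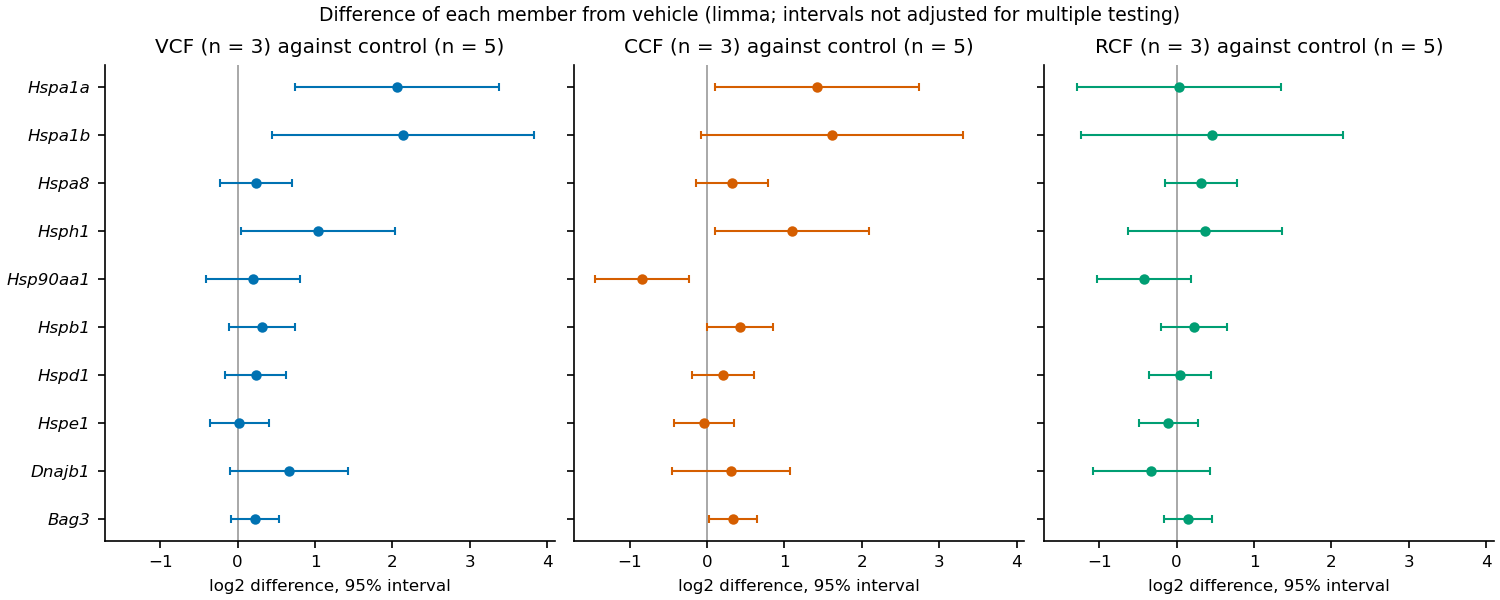
Log2 difference of each of the 10 members from vehicle, with a 95% interval from limma that is not adjusted for multiple testing, in VCF, CCF and RCF lungs (n = 3 each) against control (n = 5). Hspa1a and Hspa1b lie farthest to the right in VCF and CCF, near 2.06 and 2.14 in VCF, Hsp90aa1 lies left of 0 in CCF and RCF, and RCF intervals all include 0.

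The inducible genes Hspa1a and Hspa1b encode nearly the same HSP70 protein, so that probes of the pair may bind both transcripts and their values are uncertain as separate measurements. Hspa1a was at 0.30, 1.46, 2.77, −0.04 and 2.57 in control 1 to 5. It was at 3.10, 3.10 and 4.22 in VCF 1 to 3, at 2.49, 2.76 and 3.23 in CCF and at 1.69, 1.58 and 1.07 in RCF. Every VCF array was thus above every control array, the CCF arrays overlapped with control 3 and 5, and the RCF arrays lay inside the range of the controls. Group means were 1.41 ± 1.28 (SD, n = 5) in control, 3.47 ± 0.65 (n = 3) in VCF, 2.83 ± 0.37 (n = 3) in CCF and 1.45 ± 0.33 (n = 3) in RCF. The difference was 2.06 ± 0.60 in VCF (4.17-fold, adjusted p = 0.243) and 1.42 ± 0.60 in CCF (2.67-fold, adjusted p = 0.180), while RCF differed by 0.03 ± 0.60 (adjusted p = 0.991). Within slide 1 the VCF difference was 2.22 (2 arrays against 2) and within slide 2 it was 1.45 (1 against 1), and the CCF difference was 1.74 and 0.47. For RCF it was 0.81 within slide 1 (1 against 2) and 0.056 within slide 3 (2 against 2). With control 1 and 4 averaged as 1 sample the VCF difference was 1.74 (adjusted p = 0.426), the CCF difference 1.10 (adjusted p = 0.309) and the RCF difference −0.29 (adjusted p = 0.918).

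Hspa1b, the near copy, was at −0.92, 1.42, 2.39, −0.89 and 2.45 in control 1 to 5, at 2.87, 2.39 and 3.84 in VCF, at 2.04, 2.53 and 2.97 in CCF and at 1.46, 1.60 and 0.97 in RCF. Control 1 and 4 were the lowest of the 14 arrays for both genes, and for Hspa1b each fibre group overlapped with the range of the controls. The difference was 2.14 ± 0.78 in VCF (4.41-fold, adjusted p = 0.358), 1.62 ± 0.78 in CCF (3.07-fold, adjusted p = 0.232) and 0.45 ± 0.78 in RCF (1.37-fold, adjusted p = 0.887). Within slide 1 and slide 2 the VCF difference was 2.38 and 1.45 and the CCF difference 2.03 and 0.58, and in RCF it was 1.21 within slide 1 and 0.50 within slide 3. With control 1 and 4 as 1 sample the differences were 1.69 in VCF (adjusted p = 0.581), 1.17 in CCF (adjusted p = 0.391) and 0.0022 in RCF (adjusted p = 0.999).

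**Figure D2:**
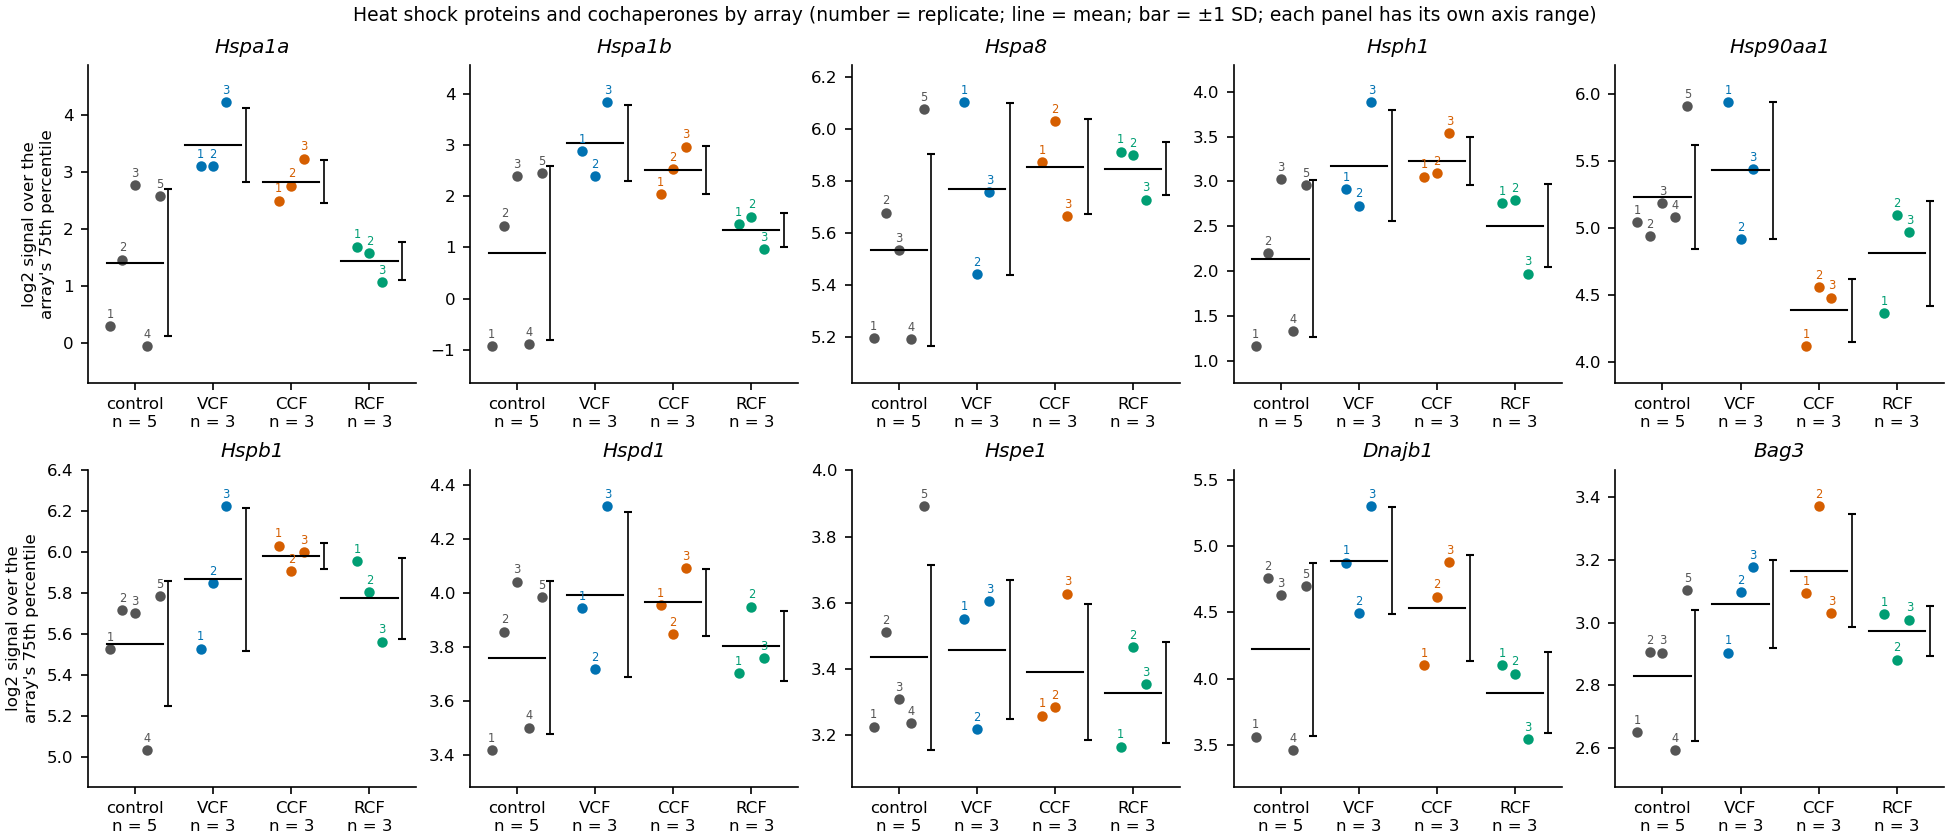
Log2 signal over the 75th percentile of the array for each of the 10 members, by group, with 1 point per array numbered by replicate, the group mean as a line and ±1 SD as a bar beside it; each panel has its own axis range. Controls 1 and 4 are low for Hspa1a, Hspa1b, Hsph1 and Dnajb1, the 3 VCF points of Hspa1a (3.10 to 4.22) lie above all 5 controls, and the 3 CCF points of Hsp90aa1 (4.12 to 4.56) lie below them.

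The near identity of the pair extends into the region before their start sites, which is shown because HSF1 binds there as trimers to repeated NGAAN units. RefSeq promoter sequences (GRCm38.p6) were matched for 8 of the 10 members in 11 windows, the 250 bases before each annotated start. Hspa8 and Hsp90aa1 were not matched. Windows were searched on both strands for a pair of opposed units, GAANNTTC or TTCNNGAA, and for a longer motif of 3 such units, in which GAA and TTC alternate with NN between them and which contains the pair. The windows of Hspa1a (chr17:34972157-34972406, minus strand) and Hspa1b (chr17:34959239-34959488, minus strand) differ at 3 of 250 bases (98.8% identity) and hold 1 pair of units, in capitals, at the same distance of 104 bases from the start.
Hspa1a: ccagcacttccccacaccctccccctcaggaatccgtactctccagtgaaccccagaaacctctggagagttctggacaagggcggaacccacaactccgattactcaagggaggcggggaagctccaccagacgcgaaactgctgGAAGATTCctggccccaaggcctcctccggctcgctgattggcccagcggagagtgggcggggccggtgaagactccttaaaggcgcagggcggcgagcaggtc
Hspa1b: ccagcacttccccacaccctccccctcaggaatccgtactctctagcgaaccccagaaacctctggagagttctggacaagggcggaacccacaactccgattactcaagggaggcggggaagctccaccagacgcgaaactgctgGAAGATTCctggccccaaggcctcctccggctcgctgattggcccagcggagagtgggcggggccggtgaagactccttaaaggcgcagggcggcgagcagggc
The unit pair was present in 7 of the 11 member windows and in 12.8% of the 32851 windows of all genes. These 7 windows are not separate sites: those of Hspa1a and Hspa1b are near copies, and the 2 of Hsph1 overlap at the same pair. Those of Hspd1 and Hspe1 share the same bases. The members were also chosen as heat shock genes, so the shares are a description. The 3-unit motif was present in 2 of 11 member windows, those of Hspd1 and Hspe1, and in 0.466% of all windows. The match is of letters only, and the binding of any factor was not measured.

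The spread among the controls was large for these genes. The SD over the 5 controls was 1.69 for Hspa1b and 1.28 for Hspa1a, above those of 98.4% and 95.2% of all genes, and 0.88 for Hsph1 (85.7%) and 0.65 for Dnajb1 (74.1%). For Bag3 it was 0.21, above 26.5% of genes, and the median gene had 0.36. Averaged over the 10 members and relative to the control mean, control 1 to 5 were at −0.58, 0.14, 0.45, −0.65 and 0.64. The VCF arrays were at 0.67, 0.39 and 1.08, the CCF arrays at 0.30, 0.50 and 0.65 and the RCF arrays at 0.11, 0.21 and −0.11. The highest control thus lay close to the middle VCF array and the highest CCF array. Genes of wide spread weigh most in this mean. The median of the members was −0.34 in control 1, −0.43 in control 4 and 0.51 in control 5.

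The means of other gene lists, relative to the control mean, separated control 1 and 4 in the same way. The mean of the 12 heart and muscle markers was −0.98 and −0.90 in control 1 and 4 and 0.35 to 0.98 in the other controls. That of the 7 measured erythroid markers of a list of 10 was −0.83 and −0.88 against 0.36 to 0.70. For the 15 immediate early genes, known to be switched on by handling and dissection, the mean was −0.42 and −0.43 in these arrays. It was 0.06 to 0.58 in the others. Single genes could go otherwise: Jun was at 5.49 and 5.64 in control 1 and 4, above its control mean of 5.44. In the fibre groups the list means went different ways. Erythroid markers averaged −2.05 to −0.99 in VCF, 0.27 to 0.56 in CCF and −0.41 to 0.22 in RCF. Muscle markers averaged −0.54 to −0.00, −0.93 to 0.82 and −1.48 to −0.29. Immediate early genes averaged −0.51 to 0.74 in VCF, −0.22 to 0.24 in CCF and −0.40 to 0.09 in RCF. Their part in the heat shock differences was not tested.

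**Figure D3:**
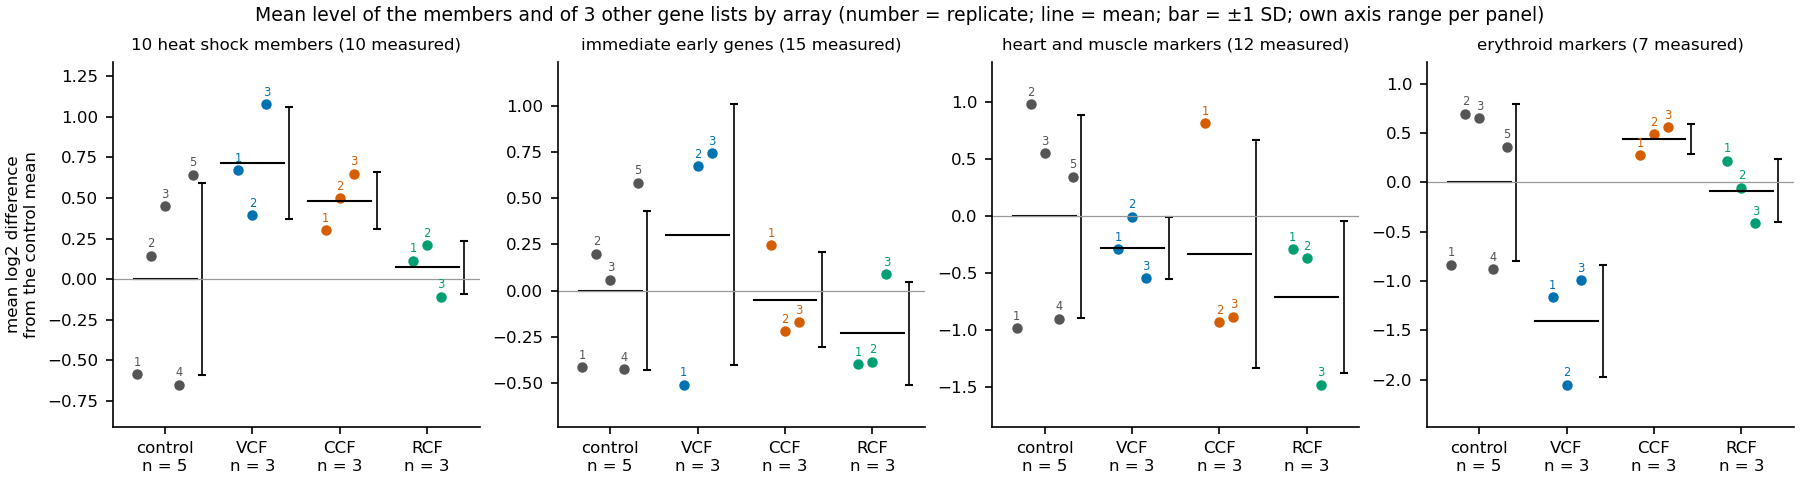
Mean log2 difference from the control mean by array for the 10 members, 15 immediate early genes, 12 heart and muscle markers and 7 erythroid markers, with 1 point per array numbered by replicate, the group mean as a line and ±1 SD as a bar. Control 1 and 4 are the low pair of controls in all 4 panels, and VCF arrays are high for the members (0.39 to 1.08) but low for erythroid markers (−2.05 to −0.99).

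Among the partners of HSP70, Hsph1 differed most from control. HSPH1 (HSP110) is an exchange factor that is itself a distant HSP70 relative. Hsph1 was at 1.16, 2.20, 3.03, 1.33 and 2.96 in control 1 to 5, at 2.91, 2.73 and 3.89 in VCF, at 3.05, 3.10 and 3.54 in CCF and at 2.76, 2.79 and 1.97 in RCF. All CCF arrays lay just above control 3, the highest control, and the VCF and RCF arrays overlapped with the controls. The difference was 1.04 ± 0.46 in VCF (2.06-fold, adjusted p = 0.477), 1.09 ± 0.46 in CCF (2.13-fold, adjusted p = 0.171) and 0.37 ± 0.46 in RCF (adjusted p = 0.817). With control 1 and 4 as 1 sample it was 0.82, 0.87 and 0.15 (adjusted p = 0.709, 0.298 and 0.951), and in RCF it was 1.08 within slide 1 and 0.23 within slide 3. A second Hsph1 probe ran with the first (r = 0.971 over 14 arrays, as a description), but its CCF arrays, at 1.54, 1.83 and 2.38, overlapped with control 3 at 2.14, while the remaining one was well above background on only 1 of 14 arrays and was not tested. Of the region before the Hsph1 start, 30 bases around its unit pair (chr5:149636351-149636380, minus strand, capitals mark the pair) are shown for comparison with the HSP70 genes.
Hsph1: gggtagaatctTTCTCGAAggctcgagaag

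Dnajb1, the J-domain partner of inducible HSP70, was at 3.56, 4.76, 4.63, 3.46 and 4.70 in control 1 to 5, at 4.87, 4.49 and 5.30 in VCF, at 4.10, 4.62 and 4.88 in CCF and at 4.10, 4.04 and 3.54 in RCF. The groups overlapped in each comparison with control. Its difference was 0.67 ± 0.35 in VCF (1.59-fold, adjusted p = 0.574), 0.31 ± 0.35 in CCF (adjusted p = 0.655) and −0.33 ± 0.35 in RCF (adjusted p = 0.773). With control 1 and 4 as 1 sample it was 0.49, 0.13 and −0.50 (adjusted p = 0.808, 0.879 and 0.630). Bag3, which links HSP70 to autophagy and to small heat shock proteins, varied least: controls were at 2.59 to 3.10, VCF at 2.90 to 3.18, CCF at 3.03 to 3.37 and RCF at 2.88 to 3.03. The CCF difference of 0.33 ± 0.14 (1.26-fold) had an adjusted p of 0.181, and those of VCF and RCF were 0.23 ± 0.14 and 0.14 ± 0.14. For Bag3, averaging control 1 and 4 gave 0.18, 0.28 and 0.089 in VCF, CCF and RCF (adjusted p = 0.866, 0.311 and 0.892). No exact unit pair was found in the 250-base windows of Dnajb1 and Bag3. Imperfect pairs and sites outside the windows were not searched. The Dnajb1 window at chr8:83608298-83608547, before a later annotated start, lies inside the gene.

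Hspa8, the constitutive HSC70 gene, gave different results by probe. Its brightest probe, A_55_P2069721, was at 5.19, 5.68, 5.53, 5.19 and 6.07 in control 1 to 5, at 6.10, 5.44 and 5.76 in VCF, at 5.87, 6.03 and 5.66 in CCF and at 5.91, 5.90 and 5.73 in RCF, and the groups overlapped. The difference by this probe was 0.23 ± 0.21 in VCF (adjusted p = 0.824), 0.32 ± 0.21 in CCF (adjusted p = 0.405) and 0.31 ± 0.21 in RCF (adjusted p = 0.602). For this probe, averaging control 1 and 4 gave 0.15, 0.23 and 0.23 in VCF, CCF and RCF (adjusted p = 0.962, 0.602 and 0.772). Each of the 3 dimmer probes was higher in every CCF array than in every control array. Probe A_66_P137434 was at 0.72, 1.04, 1.59, 0.42 and 0.81 in control 1 to 5 and at 2.82, 2.87 and 2.84 in CCF, with 1.90, 1.66 and 2.59 in VCF and 2.44, 1.48 and 1.04 in RCF. Probe A_55_P2910890 was at 2.97 to 4.09 in control and 4.75 to 5.02 in CCF, and probe A_55_P2909278 at 3.58 to 4.63 in control and 5.12 to 5.45 in CCF.

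Tested one by one with adjustment over 37983 probes, 3 of the 4 Hspa8 probes rose in CCF, where 3.82% of all probes were called higher. A_66_P137434 rose by 1.93 ± 0.33 (adjusted p = 0.0129), A_55_P2910890 by 1.43 ± 0.33 (adjusted p = 0.0301) and A_55_P2909278 by 1.21 ± 0.30 (adjusted p = 0.0377). The other 15 tested member probes had no call in CCF, and 0 of the 18 were called in VCF or in RCF, where 0.0869% and 0.155% of all probes were called. In VCF the 3 dimmer probes differed by 1.13, 0.91 and 0.84 in the same order (adjusted p = 0.254, 0.367 and 0.367). They ran together over the 14 arrays (r = 0.953 to 0.995), and less with the brightest (r = 0.466 to 0.500). Within slide 1 their CCF differences were 1.96, 1.46 and 1.28 and within slide 2 they were 1.25, 0.93 and 0.82. Without CCF 2, one of the dim arrays, 0 of the 3 passed (highest adjusted p = 0.111), and without control 1, 4 or 5, CCF 1 or CCF 3 only A_66_P137434 did, as it did with control 1 and 4 as 1 sample. The array files give all 4 probes the same RefSeq accession, and which part of the transcript each binds was not analysed here.

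**Figure D4:**
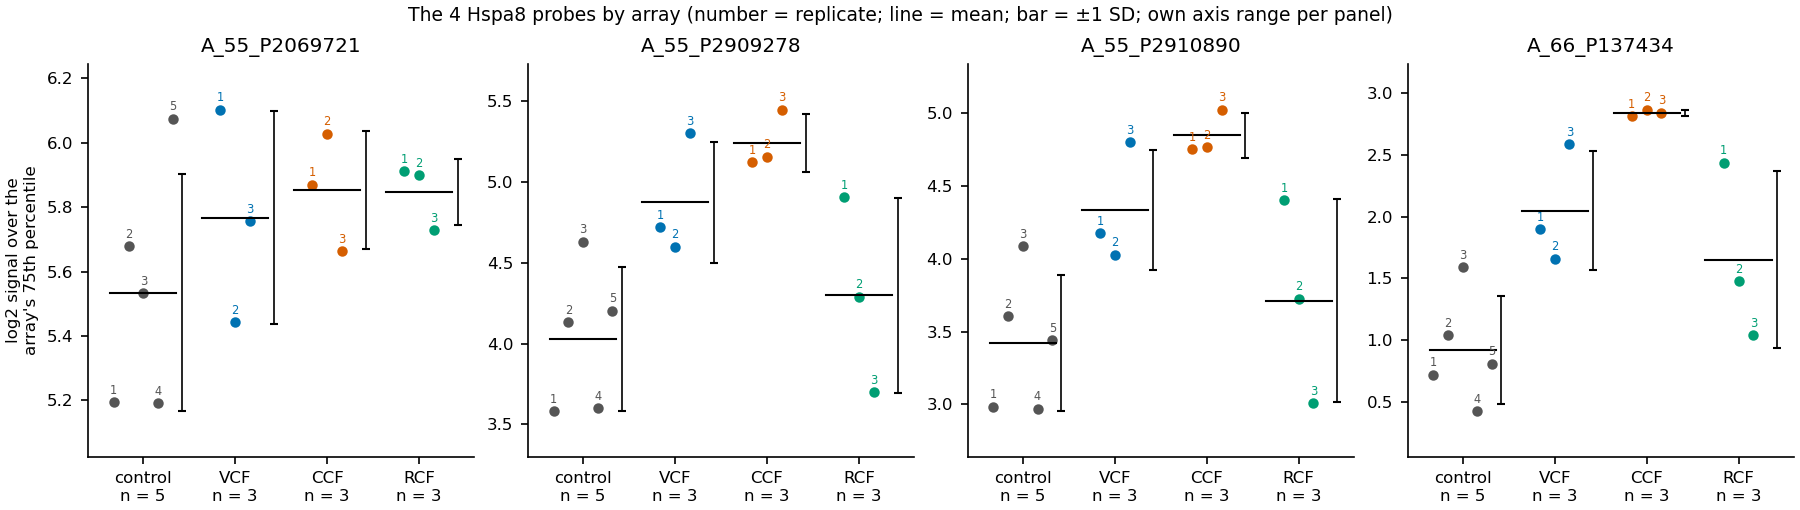
Log2 signal over the 75th percentile of the array for the 4 Hspa8 probes, brightest at left, by group, with 1 point per array numbered by replicate, the group mean as a line and ±1 SD as a bar; each panel has its own axis range. The 3 CCF points overlap with the controls in the first panel (5.66 to 6.03 against 5.19 to 6.07) and lie above all 5 controls in the other 3, as for A_66_P137434 with 2.82 to 2.87 against 0.42 to 1.59.

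Hsp90aa1, the stress-inducible HSP90 isoform, went the other way in CCF. It was at 5.04, 4.93, 5.18, 5.08 and 5.91 in control 1 to 5, at 5.94, 4.91 and 5.44 in VCF, at 4.12, 4.56 and 4.48 in CCF and at 4.36, 5.10 and 4.97 in RCF. By this brightest probe every CCF array lay below every control array, while VCF and RCF overlapped with the controls. The difference was −0.84 ± 0.28 in CCF (1.80-fold lower, adjusted p = 0.0915), 0.20 ± 0.28 in VCF (adjusted p = 0.908) and −0.42 ± 0.28 in RCF (adjusted p = 0.584). Averaging control 1 and 4 gave −0.89, 0.16 and −0.46 in CCF, VCF and RCF (adjusted p = 0.130, 0.977 and 0.622). Within slide 1 the CCF difference was −0.65 and within slide 2 −0.70, and over the 20 alternative analyses it ran from −0.93 to −0.64 with an adjusted p of 0.0552 to 0.312. A second probe of the gene differed by −0.51 ± 0.35 in CCF (adjusted p = 0.419), with an r of 0.701 to the first over 14 arrays. Its CCF arrays, at 3.67, 4.18 and 4.53, overlapped with the controls, which ran from 3.80 to 5.26.

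Counting arrays that do not overlap, 1 of 10 members was apart from control in VCF (Hspa1a, above), 3 in CCF (Hspb1 and Hsph1 above, Hsp90aa1 below) and 0 in RCF. Among all genes measured on every array of the groups, 7.38%, 16.3% and 11.4% were apart in these comparisons. With the mean over probes 2 members were apart in CCF, Hspa8 and Hspb1, and with the authors' deposited values Hsph1 was no longer apart. Hspb1 (HSP25 in mouse), the small heat shock protein of the list, was at 5.53, 5.72, 5.70, 5.04 and 5.79 in control 1 to 5 and at 6.03, 5.91 and 6.00 in CCF. VCF arrays were at 5.53, 5.85 and 6.23 and RCF arrays at 5.96, 5.81 and 5.57, both overlapping with the controls. The difference was 0.43 ± 0.20 in CCF (1.34-fold, adjusted p = 0.215), 0.31 ± 0.20 in VCF (adjusted p = 0.671) and 0.22 ± 0.20 in RCF (adjusted p = 0.711). Its window (chr5:135887669-135887918, plus strand) is printed because it holds 2 separate unit pairs, in capitals, 117 and 97 bases before the start.
Hspb1: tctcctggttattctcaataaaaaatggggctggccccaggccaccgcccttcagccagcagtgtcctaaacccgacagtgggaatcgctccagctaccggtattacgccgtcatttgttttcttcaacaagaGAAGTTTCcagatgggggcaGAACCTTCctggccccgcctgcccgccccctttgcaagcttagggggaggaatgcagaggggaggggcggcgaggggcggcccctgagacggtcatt

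Of the mitochondrial pair Hspd1 (HSP60) and Hspe1 (HSP10), Hspe1 had the smallest difference in size of all members in VCF and CCF by brightest probe. Hspd1 was at 3.42 to 4.04 in control, 3.72 to 4.32 in VCF, 3.85 to 4.09 in CCF and 3.70 to 3.95 in RCF, with differences of 0.23 ± 0.18, 0.21 ± 0.18 and 0.04 ± 0.18 (adjusted p = 0.765, 0.552 and 0.966). Averaging control 1 and 4 gave 0.16, 0.13 and −0.032 for Hspd1 (adjusted p = 0.930, 0.761 and 0.977). A dimmer Hspd1 probe, A_55_P2846649, differed by 0.44 ± 0.18, 0.45 ± 0.18 and 0.16 ± 0.18, which did not pass over all probes either (adjusted p = 0.460, 0.152 and 0.788). Hspe1 was at 3.23 to 3.89 in control, 3.22 to 3.61 in VCF, 3.26 to 3.63 in CCF and 3.17 to 3.47 in RCF, and differed by 0.02 ± 0.18, −0.04 ± 0.18 and −0.11 ± 0.18 (adjusted p = 0.989, 0.918 and 0.881). For Hspe1, averaging control 1 and 4 gave −0.027, −0.096 and −0.16 (adjusted p = 0.995, 0.837 and 0.831). The intervals of this brightest Hspe1 probe ran from −0.36 to 0.41 in VCF, −0.43 to 0.34 in CCF and −0.49 to 0.28 in RCF, which leaves out a change of 1 in either direction, while those of its other 2 probes were wider, up to 1.00 in VCF for A_66_P124339 and up to 1.88 in RCF for A_55_P1953063. The dim probe A_55_P1953063 was at −1.63, −1.57 and −1.34 on the 3 arrays of slide 2 and at 0.08 to 0.64 on the other 11, a split by slide and not by group. The 2 genes lie head to head on chromosome 1, and their windows share the same 18 bases with the 3-unit motif. They are shown in 30 bases from the Hspe1 side (chr1:55088053-55088082, plus strand), with the units in capitals.
Hspe1: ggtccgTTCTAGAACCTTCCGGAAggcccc

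Between fibres, 0 of 10 members were called by limma in CCF against VCF (0.222% of all genes called), RCF against VCF (0.00981%) and RCF against CCF (0.00327%). At an unadjusted p under 0.05 there were 1 (13.8% of all genes), 2 (9.05%) and 0 (9.26%). Hsp90aa1 was lower in CCF than in VCF by 1.05 ± 0.31 (95% interval of the difference −1.72 to −0.37, 2.06-fold, adjusted p = 0.176). Hspa1a was lower in RCF than in VCF by 2.03 ± 0.67 (4.07-fold, adjusted p = 0.392), and within slide 1 the difference was −1.40 (1 array against 2). Dnajb1 was lower in RCF than in VCF by 0.99 ± 0.39 (1.99-fold, adjusted p = 0.480), and within slide 1 its difference was −0.58 (1 array against 2). By group mean VCF was the highest of the 4 groups for 6 members and CCF for 4, and control was the lowest for 7. These counts depend on control 1 and 4. With that pair averaged as 1 sample RCF lay below control for Hspa1a (−0.29) and Hspd1 (−0.032), and VCF below control for Hspe1 (−0.027). Neighbours in these orders did not pass the test, and for Hspa1a the interval of the CCF against VCF difference ran from −2.12 to 0.83.

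The members also varied together across single arrays. With group means removed, the r with Hspa1a over 14 arrays was 0.975 for its near copy Hspa1b, 0.968 for Hsph1, 0.879 for Dnajb1 and 0.869 for Hspd1, ranks 2, 3, 36 and 46 among 30579 genes (Hspa1a itself is 1). It was 0.761 for Hspb1, 0.686 for Bag3, 0.569 for Hspe1, 0.568 for Hspa8 and 0.325 for Hsp90aa1, and the median gene had −0.02. These arrays share slides and scaling, and the values are descriptions. The SD of Hspa1a was 1.28 in the controls against 0.65 in VCF, 0.37 in CCF and 0.33 in RCF, so the controls weigh most in r. Control 1 and 4 were the lowest arrays for Hspa1a, and r with that pair averaged was not computed.

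The 8 genes outside the list whose values ran most like the mean of the 10 members, over 14 arrays and 15800 genes with a symbol, were Dnaja1 (r = 0.954), Ahsa2 (0.946), Dedd2 (0.918), Iqcb1 (0.879), Nolc1 (0.864), Chordc1 (0.857), Kcnj2 (0.855) and Dll1 (0.853). The members were centred but not scaled, so those of wide spread, Hspa1a and Hspa1b above all, weigh most in their mean. Dnaja1 is a J-domain protein, and Ahsa2 and Chordc1 are cochaperones of HSP90. Dnaja1 was at 4.11 and 4.25 in control 1 and 4 and at 4.64 to 5.36 in the other controls, against 4.93 to 5.76 over the VCF and CCF arrays and 4.66 to 4.94 in RCF. None of the 8 passed the test against control (Chordc1 in CCF: 0.80, adjusted p = 0.0977).

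**Figure D5:**
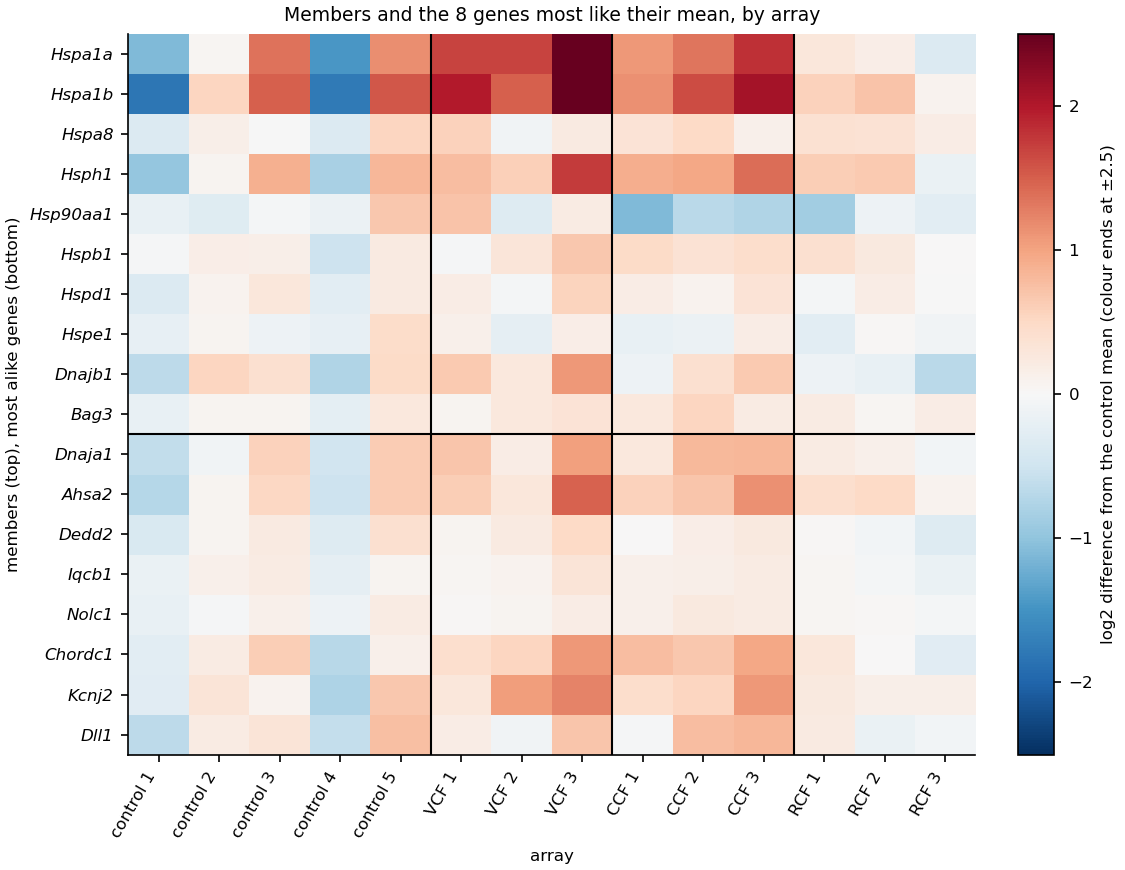
Log2 difference from the control mean on each of 14 arrays (columns, grouped as control, VCF, CCF and RCF) for the 10 members (upper rows) and the 8 genes most like their mean (lower rows), with red above and blue below the control mean and colours ending at ±2.5. Control 1 and 4 are blue for Hspa1a, Hspa1b, Hsph1 and Dnajb1 and for Dnaja1 and Ahsa2, and Hsp90aa1 is blue in CCF where Hspa1a is red.

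The rest of the chaperone network was measured with 87 of 88 listed genes. In CCF 5 rose and 1 fell (6.90% of the 87, against 5.99% of all genes), and in VCF, RCF and between fibres 0 were called by limma. At an unadjusted p under 0.05 there were 9 of 87 in VCF (9.96% of all genes), 29 in CCF (23.7%) and 15 in RCF (12.9%). The median of the 87 was 0.05 in VCF, 0.15 in CCF and −0.03 in RCF. Of the other HSP70 relatives, 3 of 11 rose in CCF, where 1157 of all 30579 genes did. Hspa12a rose by 0.70 ± 0.14 (adjusted p = 0.0189) and Hspa12b by 0.65 ± 0.16 (adjusted p = 0.0367), both distant members of the family. Hspa4l, an exchange factor akin to Hsph1, rose by 0.69 ± 0.16 (adjusted p = 0.0319). Hspa4l was at 0.63 ± 0.16 in RCF and 0.58 ± 0.16 in VCF above control without passing (adjusted p = 0.138 and 0.227). Of 23 other J-domain genes measured, Dnajb9, a cochaperone of the endoplasmic reticulum, rose by 0.76 ± 0.15 (adjusted p = 0.0189) and Dnajc2, which acts at the ribosome, fell by 0.82 ± 0.19 (adjusted p = 0.0310). St13, the HSP70-interacting protein HIP, was the 1 of 16 HSP90 and HSP70 cochaperones to rise, by 0.94 ± 0.25 (adjusted p = 0.0451).

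These 6 calls were near the threshold. Leaving out single arrays ended 2 to 6 of 8 tests for each. Dnajb9 was lost without CCF 2 or CCF 3 (highest adjusted p = 0.0866), and Hspa12a without control 4, CCF 1 or CCF 2 (0.0698). Hspa4l was lost without control 1 or 4 or any CCF array (0.131). Hspa12b (0.136), St13 (0.148) and Dnajc2 (0.101) were lost without control 1, 4 or 5 or any CCF array. All 6 were also lost without the 3 dim arrays, with only the 2 groups compared and without a filter on dim probes.

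No member of the other chaperone lists passed in any comparison with control: other HSP90 isoforms (3), other small heat shock proteins (9), other BAG proteins (5), the TRiC chaperonin (8), mitochondrial chaperones (9, some also in other lists) and heat shock factors with their regulators (6). Examples in CCF are Cryab, αB-crystallin, at −0.36 ± 0.14 (adjusted p = 0.153), Bag2 at 0.47 ± 0.20 (adjusted p = 0.179), Cct3, a TRiC subunit, at 0.49 ± 0.21 (adjusted p = 0.191), and Hsf2, a heat shock factor, at −0.55 ± 0.17 (adjusted p = 0.0692). Hsp90b1, the HSP90 of the endoplasmic reticulum, was at −0.21 ± 0.17 (adjusted p = 0.508).

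Genes that respond to handling, time of day and body temperature were set beside the members. Cirbp, the cold-inducible RNA-binding protein, fell in CCF by 1.34 ± 0.21 (2.53-fold, adjusted p = 0.0106). The clock gene Nr1d2 rose in CCF by 0.95 ± 0.15 (adjusted p = 0.00987). It was at −0.022 ± 0.15 in VCF (adjusted p = 0.987) and 0.80 ± 0.15 in RCF (adjusted p = 0.0661). Of 12 clock and temperature genes measured, 2 rose and 1 fell in CCF, where 1157 and 675 of all 30579 genes did. In VCF and RCF 0 of the 12 were called (0.085% and 0.154% of all genes). Cirbp was at −0.50 ± 0.21 in VCF (adjusted p = 0.471) and −0.97 ± 0.21 in RCF (adjusted p = 0.0980). Hspa1a, for comparison, differed from control by 1.42 in CCF, 2.06 in VCF and 0.03 in RCF. Of 15 immediate early genes 0 were called, with 11, 5 and 4 above 0 in VCF, CCF and RCF. Fos was at 1.82 ± 0.51 in VCF (adjusted p = 0.232) and 1.54 ± 0.51 in CCF (adjusted p = 0.0966), while Jun was at −0.16 ± 0.38 in VCF (adjusted p = 0.953), −1.30 ± 0.38 in CCF (adjusted p = 0.0668) and −0.90 ± 0.38 in RCF (adjusted p = 0.344). Of 16 endoplasmic reticulum stress genes only Dnajb9, also counted above, rose in CCF. Neutrophil markers differed between the groups as well: 4 of 10 measured fell in CCF (675 of all 30579 genes did), with S100a9 lower by 1.68 ± 0.29 (adjusted p = 0.0134). The median of the neutrophil markers was 0.90 in VCF, −1.11 in CCF and 0.03 in RCF. B cell markers (9) had medians of −0.62, −0.31 and −0.62, and T cell markers (9) of −0.65, 0.06 and −0.23. The part of these lists in the heat shock values was not tested.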

How the data were processed

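RNA of 14 lungs, 1 per mouse, was hybridised to 14 Agilent arrays in 1 colour (Cy3). Per the labels' protocols total RNA was extracted with phenol and chloroform, purified on a column and amplified to labelled cRNA. Feature Extraction 10.7.3.1 read the scans, per the file headers, and its processed signal is the deposited intensity used here. The median spot and background signals are deposited as intensity too, and the median took the place of the mean signal planned for normexp (offset 50), which is not in the files used here. The authors' deposited series matrix holds log2 values: a column differs from the log2 processed signal of that array by a constant, within 0.01 for 100% of values, whose column medians ran from −0.52 to 0.30. It is thus on a known scale and direction and not centred per gene, and the sources used here do not say how the constants were chosen.

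The processed signal was put on the log2 scale and the 75th percentile of the non-control spots of the same array was subtracted. Outlier spots were left out and spots of 1 probe averaged. A probe was kept if 3 or more of the 14 arrays had it well above background (37983 of 56605). Symbols came from RefSeq accessions (32994 probes with 1 symbol, 23611 without), and a probe without one stood alone, which left 30579 genes (30574 where RCF takes part). Positions printed are those of RefSeq, GRCm38.p6, and not of probes.

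Samples were grouped as labelled. A model with 4 group means and no covariates was fitted with limma 3.58.1 (R 4.3.3, with data.table in version 1.17.8) to all 14 arrays, with moderated two-sided tests for 6 comparisons, adjusted by Benjamini-Hochberg over all genes of a comparison at a threshold of 0.05. Single probes were tested in the same way. The steps were tested on simulated data. The number of arrays limits the precision. Alternatives were other scaling, background and filters, the mean over probes, slide or replicate number as blocks, only the groups compared, single or dim arrays left out and the authors' values.

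The members and lists were chosen with earlier results of these data known. All members were named. From each chaperone list the genes past the threshold were named, otherwise the 2 with the smallest p against control (those of clearest function are printed). At most 2 genes came from each list set beside them. Likeness was ranked by Pearson's r with the mean of the centred members. No gene set test was run.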

Additional observations from a re-analysis of the deposited data

Results flagged for a closer look

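Of the 18 tested member probes, 2 had a control array far from the other 4, and about 1 in 20 groups of 5 is set apart in this way by chance. For Hsp90aa1 (probe A_55_P2796341) control 5 was the highest control at 5.91, with a gap to the next control of 0.746 of the range of the 5, where the limit is 0.71. VCF 1 reached a like level of 5.94, and the CCF difference of this gene without single arrays is given by its range of −0.93 to −0.68. For Hspe1 (probe A_55_P1953063, not the probe used for the gene) control 3 was the lowest control at −1.63, with a gap of 0.757 of the range, and the other 2 arrays of slide 2, VCF 3 and CCF 3, were as low. The brightest Hspe1 probe showed no such split.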

How the results depend on the processing

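The count of called members stayed at 0 of 10 in all 6 comparisons under every alternative run, with 1 exception: the mean over probes of a gene made it 1 in CCF against control, Hspa8. Of 1140 member values under alternatives 1078 kept their direction and their side of the threshold and 61 changed sign. Hspa1b in RCF was among these, at 0.45 in the analysis reported and as low as −0.0023 with 1 array left out. Of the 60 member comparisons 41 never changed sign. The 14 arrays, 3 per fibre, and the spread among the controls limit what could be resolved.

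Genes called in VCF, CCF and RCF against control and in CCF against VCF, RCF against VCF and RCF against CCF were 26, 1832, 47, 68, 3 and 1. In RCF against CCF the count was 0 under every alternative other than the replicate block (1) and the leaving out of single arrays. With quantile scaling it was 2 in VCF, 6 in RCF and 0 in RCF against VCF, and with normexp and quantile 41 in VCF and 0 in RCF against VCF. Without a filter on dim probes it was 0, 372, 0, 23 and 0 for the first 5 comparisons, and with probes well above background on all arrays 96 in VCF, 195 in RCF, 190 in CCF against VCF and 10 in RCF against VCF. The mean over probes gave 24 in RCF. Slide as a fixed block gave 457 in RCF, 563 in CCF against VCF and 7 in RCF against VCF. Slide as a random block gave 95, 2953, 468 and 656 for the first 4. Fitting only the 2 groups compared gave 0, 271, 0, 0 and 0, leaving out the 3 dim arrays 1, 418, 1, 0 and 0, and control 1 and 4 as 1 sample (chosen after seeing the data) 0 in VCF, 821 in CCF, 10 in RCF and 0 in RCF against VCF. The authors' deposited values gave 0 in RCF against CCF.

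The replicate number as a block gave 0 in VCF, 2 in CCF, 0 in RCF, 0 in CCF against VCF and 0 in RCF against VCF, and 0 called member probes in CCF, with Hspe1 at 0.042 in CCF and Hspa1a at −0.064 in RCF. It drops control 4 and 5. The numbers were not taken as pairs, since not every pair of same-numbered arrays had an r above 0.1 between their deviations: 12 of 18 did (median 0.181, 12 on the same slide), against 11 of 54 differently numbered pairs (median −0.034, 13 on the same slide). Same-numbered pairs were thus more alike and more often shared a slide, and the 2 cannot be told apart here. The correlation within slides was 0.33 in the fit with slide as a random block, and the model reported has no slide term. The replicate block also ended the calls named for the chaperone network, Cirbp, Nr1d2 and S100a9. Cirbp was also lost with the mean over probes and with only the 2 groups compared, and S100a9 without the dim arrays and without CCF 2. Control 1 and 4 as 1 sample ended the calls of Dnajc2, Hspa12b, Hspa4l and St13.

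Member probes called in CCF, 3 in the analysis reported, were 1 without a filter, with only the 2 groups compared, without the dim arrays and with control 1 and 4 as 1 sample. The median of the members moved to 0.52 (quantile scaling) and 0.50 (normexp) in CCF, and with the mean over probes to 0.50 in VCF and −0.43 in RCF against CCF. It was 0.43 in VCF and −0.32 in RCF against CCF with normexp, against 0.27 and −0.20, and 0.21 in RCF with slide as a fixed block, against 0.09. Members at an unadjusted p under 0.05 were 6 in VCF and 7 in CCF with normexp, and 1 in each without the dim arrays and with only the 2 groups compared. In VCF, 2 members were apart from control with quantile scaling, with normexp and without the dim arrays. Signs changed as follows. Hspe1 in CCF was 0.033 with quantile scaling, 0.037 with slide as a fixed block, 0.0077 as a random block and 0.0081 without dim arrays. Without dim arrays Hsp90aa1 in VCF was −0.053, Hspe1 in VCF −0.023, Hspa1a in RCF −0.090, and the Hspa8 probes A_55_P2909278 and A_55_P2910890 in RCF −0.034 and −0.051. The same setting gave, in CCF against VCF, Hsph1 −0.013, Hspb1 −0.022, Hspd1 0.0046, Hspe1 0.031 and Bag3 −0.074, and, in RCF against CCF, Hspa8 0.046. With control 1 and 4 as 1 sample Hspe1 in VCF was −0.027, Hspa1a in RCF −0.29 and Hspd1 in RCF −0.032. The mean over probes gave Hspe1 0.26 in RCF, 0.22 in RCF against VCF and 0.35 in RCF against CCF, Hsph1 −0.078 in CCF against VCF and Hspa8 −0.38 in RCF against VCF. Hspb1 in RCF against VCF was 0.11 with slide as a fixed block and 0.017 as a random block, and in RCF against CCF 0.0017 with the fixed block. The cause of these changes was not tested.

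Leaving out each array in turn, genes called ran from 0 to 28 in VCF, 258 to 2717 in CCF, 0 to 55 in RCF, 21 to 30 in CCF against VCF, 0 to 26 in RCF against VCF and 0 to 25 in RCF against CCF. Member probes called in CCF ran from 0 to 3. Members apart from control ran from 1 to 3 in VCF and from 0 to 1 in RCF. The median of the members ran from 0.18 to 0.43 in VCF, 0.25 to 0.44 in CCF, −0.022 to 0.24 in RCF, −0.18 to 0.043 in CCF against VCF and −0.60 to −0.19 in RCF against VCF. Values that changed sign ran, in VCF, from −0.053 to 0.46 for Hsp90aa1 and −0.050 to 0.14 for Hspe1, and in CCF from −0.16 to 0.069 for Hspe1. In RCF they ran from −0.33 to 0.37 for Hspa1a, −0.0023 to 0.84 for Hspa1b, −0.043 to 0.11 for Hspd1, −0.18 to 0.0079 for Hspe1, −0.034 to 0.57 for A_55_P2909278 and −0.051 to 0.64 for A_55_P2910890. In CCF against VCF they ran from −0.076 to 0.25 for Hspa8, −0.17 to 0.41 for Hsph1, −0.057 to 0.29 for Hspb1, −0.17 to 0.14 for Hspd1 and −0.19 to 0.0050 for Hspe1. In RCF against VCF Hspa8 ran from −0.084 to 0.25 and Hspb1 from −0.26 to 0.086, and in RCF against CCF Hspa8 from −0.10 to 0.079 and Hspe1 from −0.13 to 0.057.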
